A study of Drosophila melanogaster with 9 samples.

Results

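CtBP, Groucho (gro) and a set of repressors that work with them were followed in Kc167, a line derived from Drosophila embryos whose cells have features of hemocytes, as fly blood cells are called. The set was defined by name as CtBP, gro, Rpd3, h, zfh1, ttk and sna, and all 7 were found among the 14797 genes of the deposited expression table. The 9 libraries form 3 groups of 3, each treated for 7 days with 15 µg of dsRNA. The first group received dsRNA against ph, E(z) and CtBP, called ph+E(z)+CtBP RNAi. The second received dsRNA against ph and E(z), called ph+E(z) RNAi, and the third received control dsRNA with a target not given in the sources used here. CtBP was therefore targeted only in cells in which ph and E(z), genes of the Polycomb repressive complexes, were targeted as well, and a group with CtBP RNAi alone was not analysed here. Kc167 is a single cell line, and the labels do not say whether the 3 libraries of a group are separate cultures, so a p refers to the spread among these libraries, which may be technical.

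CtBP and Groucho are corepressors, proteins without a DNA-binding domain that sequence-specific repressors bring to their target genes. CtBP resembles a dehydrogenase, binds NAD(H) and recognises a short peptide motif in its partners, and in the fly embryo it serves short-range repressors such as Snail. Groucho is a WD-repeat protein that serves long-range repressors such as Hairy, and both corepressors can work with the histone deacetylase Rpd3. Outside the embryo, zfh1 is known for maintaining somatic stem cells of the testis.

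Levels are given as FPKM, fragments per kilobase of transcript relative to all mapped fragments, a unit scaled for transcript length, so genes can be compared with each other. Differences were tested with limma on log2(FPKM + 0.5) over the 8853 genes that reached 0.5 FPKM in at least 3 libraries, with Benjamini-Hochberg adjustment over all of them. A gene is said to have risen or fallen only where its adjusted p was under 0.05. Log2 changes are given as estimate ± SE, and group levels as mean ± SD of 3 libraries. Of the 7 genes, 6 passed the filter. The exception was sna, which encodes the zinc finger repressor Snail of the embryonic mesoderm and lay between 0 and 0.151 FPKM in all 9 libraries.

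The FPKM of a library added up to 725406 at the lowest and 908290 at the highest, and the number of reads is not known. The library labelled control replicate 1 stood apart. Genes with RpL and RpS symbols made up 39.6% of its FPKM total, against 26.4% to 30.8% elsewhere, and its deviations from the mean of the other 2 controls had an SD of 1.03 on the log2 scale, against 0.524 to 0.695 for every other library and its group. It touches the repressors unequally. In this library zfh1 was at 15.0% of the mean of the other 2 control libraries, ttk at 30.8% and h at 51.6%, whereas CtBP was at 93.0%, Rpd3 at 94.9% and gro at 113%. Of all tested genes, 2.51% deviated lower than zfh1 in that library, 7.10% lower than ttk and 16.1% lower than h. Because all 9 libraries share 1 estimate of spread, this library also widens the SE of the comparison between ph+E(z)+CtBP and ph+E(z) RNAi, in which it takes no part. Calls that change without it are given both ways.

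As a check of the labels, the targets were examined in every library. CtBP (FBgn0020496) lies on 3R at 13011649 to 13026275 on the plus strand of dm6, with 10 annotated transcripts. It held 49.0, 41.8 and 65.8 FPKM in ph+E(z)+CtBP replicates 1, 2 and 3, against 205, 221 and 220 FPKM in the ph+E(z) libraries and 189, 202 and 205 FPKM in the control libraries. The 3 libraries with CtBP RNAi lay far below the other 6, and replicate 3 kept the most CtBP transcript. These libraries held 22.8%, 19.4% and 30.5% of the ph+E(z) mean, and the transcript fell by 2.06 ± 0.16 on the log2 scale against ph+E(z) RNAi (adjusted p = 0.00121) and by 1.94 ± 0.16 against control RNAi (adjusted p = 0.000436). In the first of these comparisons only 62 of 8853 genes, 0.700%, had a lower log2 change. E(z), the histone methyltransferase of Polycomb repressive complex 2, was at 9.49 ± 0.489 FPKM with all 3 targets and 9.72 ± 2.04 with ph+E(z) RNAi, against 37.4 ± 6.10 in control cells, and fell in both, with log2 changes of -1.91 ± 0.18 and -1.90 ± 0.18 against control (adjusted p = 0.000809 and 0.0011). For ph-p, a subunit gene of Polycomb repressive complex 1, the levels were 8.26 ± 1.77 FPKM in ph+E(z)+CtBP libraries, 7.48 ± 0.472 FPKM in ph+E(z) libraries, and 4.64, 18.9 and 18.1 FPKM in control libraries. The library labelled control replicate 1 went against its label for ph-p, whereas its E(z) level of 43.4 FPKM was the highest of the 9 libraries and went with that label. It was also low for zfh1 and ttk, which no group targeted, at 15.0% and 30.8% of the mean of the other 2 controls. For gro it was not low (113%). By limma the ph-p change was called neither with all 3 targets (-0.51 ± 0.46, adjusted p = 0.483) nor with ph+E(z) RNAi (-0.62 ± 0.46, adjusted p = 0.486). Without that library ph-p fell in both, with log2 changes of -1.13 and -1.25 (adjusted p = 0.00421 and 0.00617). In the authors' deposited table the q-value of ph-p for ph+E(z) against control was 0.00102. Its near-identical neighbour ph-d, whose reads may be split with it, was at 4.18 ± 0.704, 4.58 ± 0.354 and 3.95 ± 2.37 FPKM in the same order of groups. In control replicates 1, 2 and 3 ph-d held 1.26, 5.72 and 4.87 FPKM. Both ph-d changes against control, 0.26 ± 0.43 and 0.38 ± 0.43, turned negative without that library (-0.32 and -0.19).

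**Figure D1:**
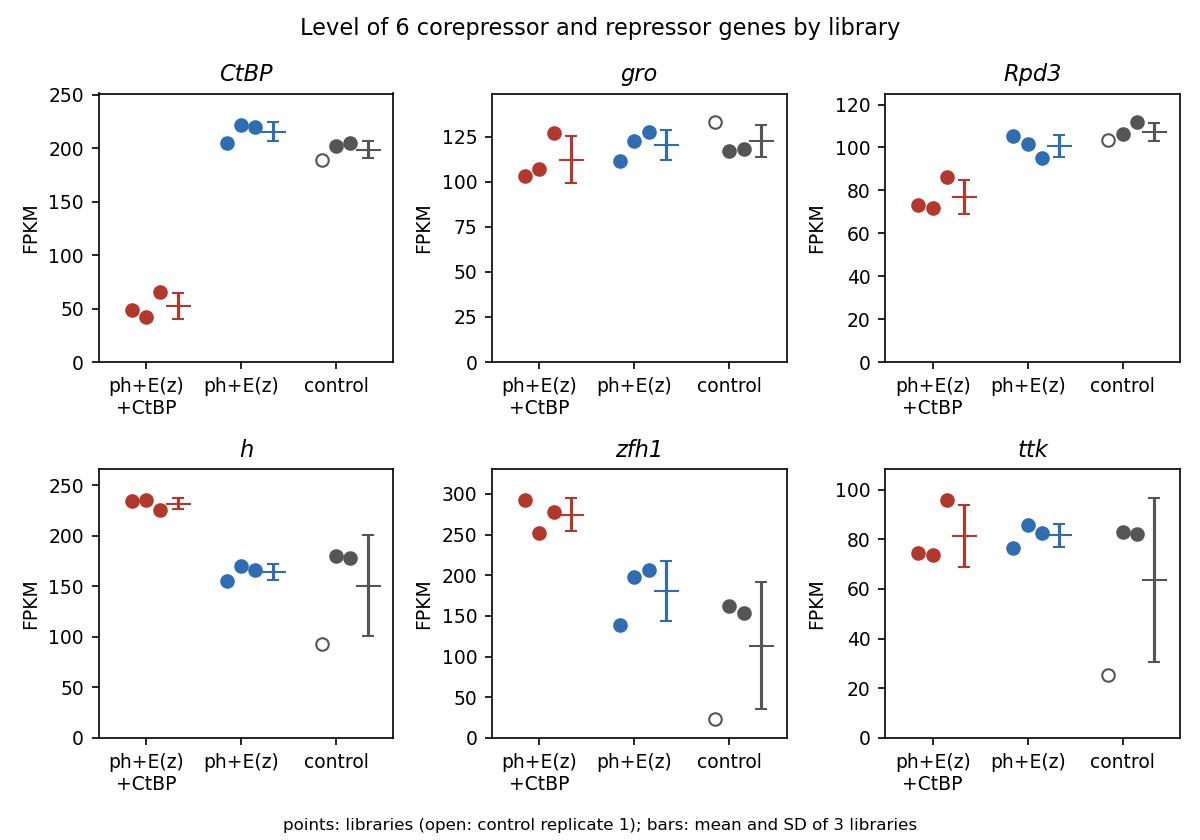
FPKM of CtBP, gro, Rpd3, h, zfh1 and ttk in each library, with points for libraries (open for control replicate 1), bars for the mean and SD of 3 libraries, and the groups ph+E(z)+CtBP, ph+E(z) and control from left to right. CtBP is at 41.8 to 65.8 FPKM where it was targeted, h and zfh1 are highest in the same libraries, and control replicate 1 is low for h, zfh1 and ttk.

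Where it was not targeted, CtBP was an abundant transcript. Among genes at 0.5 FPKM or more, CtBP lay between the 68.0th and the 94.7th percentile over all libraries, with the low end in a library treated against it. The order of levels in the ph+E(z) libraries was CtBP at 215 ± 8.96, zfh1 at 181 ± 36.9, h at 164 ± 7.92, gro at 120.5 ± 8.33, Rpd3 at 100.6 ± 5.19 and ttk at 81.6 ± 4.69 FPKM. Of the neighbours in this order, zfh1 overlapped CtBP in 1 library (206 FPKM) and spanned h, whereas h and gro, gro and Rpd3, and Rpd3 and ttk did not overlap. With CtBP also targeted the order became zfh1 at 274 ± 20.4, h at 232 ± 5.50, gro at 112 ± 12.8, ttk at 81.3 ± 12.5, Rpd3 at 77.0 ± 7.84 and CtBP at 52.2 ± 12.3 FPKM. In that group ttk and Rpd3 overlapped, and the other neighbours did not. CtBP was last of the 6 in every ph+E(z)+CtBP library. Within a library, CtBP over gro came to 0.476, 0.391 and 0.518 in ph+E(z)+CtBP replicates 1, 2 and 3, against 1.84, 1.81 and 1.72 in the ph+E(z) libraries and 1.42, 1.73 and 1.73 in the control libraries. These are ratios of FPKM of transcripts and say nothing of the amounts of the proteins.

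Setting ph+E(z)+CtBP against ph+E(z) RNAi addresses the effect of adding CtBP RNAi to the other targets. Of the 6 tested genes, 1 fell, the targeted CtBP itself, 0 rose and 5 did not pass, where 3.72% of all tested genes were called, 1.94% higher and 1.77% lower. Without the library labelled control replicate 1 the same 2 groups gave 4 called genes, CtBP and Rpd3 lower and h and zfh1 higher, where 13.5% of all tested genes were called. For these same 4 of the 6 genes the 2 groups had no overlap, as for 31.2% of the tested genes. The log2 changes of this comparison are the same with or without a control library, and only the estimate of spread differs.

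Groucho transcript showed no called change when all libraries had equal weight. The gro gene (FBgn0001139, 3R at 26041736 to 26049911, plus strand) held 103, 107 and 127 FPKM in ph+E(z)+CtBP libraries, against 111, 122 and 128 FPKM in ph+E(z) libraries and 133, 117 and 118 FPKM in control libraries. The 3 groups overlapped. The log2 change of gro was -0.11 ± 0.12 against ph+E(z) RNAi (adjusted p = 0.796) and -0.13 ± 0.12 against control RNAi (adjusted p = 0.467). For ph+E(z) against control RNAi it was -0.03 ± 0.12 (adjusted p = 0.917). A change that misses the threshold does not show that the level stayed the same, but 94.2% of all tested genes had a larger absolute log2 change in the last comparison and 68.6% in the first. With libraries weighted by their scatter, gro was called lower against ph+E(z) RNAi (-0.21, adjusted p = 0.0346). In the dm6 annotation 181 exonic bases of gro overlap Exo84 on the opposite strand. Without a statement on strand, the reads of such overlaps cannot be told apart. The gene models behind the deposited FPKM are not known, so the overlap there may differ.

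The histone deacetylase gene Rpd3 (FBgn0015805, HDAC1 in newer annotation, 3L at 4626734 to 4629467, plus strand) was lowest where CtBP was targeted. It held 73.1, 71.9 and 86.0 FPKM in ph+E(z)+CtBP libraries, against 105, 101 and 95.1 FPKM in ph+E(z) libraries and 103, 106 and 112 FPKM in control libraries. The 3 ph+E(z)+CtBP libraries were all below the other 6. Against ph+E(z) RNAi alone, 31.2% of all tested genes had groups without overlap in either direction. Against control RNAi Rpd3 fell by 0.48 ± 0.10 on the log2 scale, to 71.9% of the control mean (adjusted p = 0.0254), and it was one of 2 of the 6 tested genes that fell there, with CtBP, where 9.73% of all tested genes were called, 5.58% higher and 4.15% lower. The groups had no overlap for CtBP, Rpd3, h and zfh1, as for 36.3% of the tested genes, and without the library labelled control replicate 1 these 4 were called, where 17.4% of genes were. The Rpd3 call against control was lost when some single libraries were left out. Its adjusted p was 0.0657 and 0.0803 without control replicates 2 and 3, 0.0568 without ph+E(z) replicate 2, and 0.115 and 0.112 without ph+E(z)+CtBP replicates 1 and 2. Against ph+E(z) RNAi its change was -0.39 ± 0.10 (adjusted p = 0.0944, and 0.0211 without control replicate 1). In ph+E(z) against control RNAi it was -0.09 ± 0.10 (adjusted p = 0.638), with overlapping groups. An antisense non-coding gene shares 170 exonic bases with Rpd3 in the dm6 annotation.

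Hairy, encoded by h (FBgn0001168, hry in newer annotation, 3L at 8675759 to 8679253, plus strand), is a pair-rule repressor of the basic helix-loop-helix class that recruits Groucho and also contacts CtBP. It held 235, 235 and 225 FPKM in ph+E(z)+CtBP libraries, against 155, 170.2 and 167 FPKM in ph+E(z) libraries and 92.7, 180.4 and 179 FPKM in control libraries. All 3 libraries with CtBP RNAi lay above the other 6, and the values within that group were close to each other. Of all tested genes 31.2% had no overlap between these libraries and ph+E(z) RNAi, and 36.3% none with control RNAi. The share of genes set apart from both groups at once was not counted. Their mean was 141% of the ph+E(z) mean, a log2 change of 0.50 ± 0.23 that did not pass with all 9 libraries (adjusted p = 0.389). When the library labelled control replicate 1 was left out the SE was 0.055 and h rose (adjusted p = 0.00139), and it also rose when only the 2 groups compared were fitted (adjusted p = 0.00661). Against control RNAi the change was 0.68 ± 0.23 (adjusted p = 0.105). Without that control library it was 0.37 ± 0.06, 129% of the mean of the other 2, and was called (adjusted p = 0.00725). With ph+E(z) RNAi alone, h differed from control by 0.19 ± 0.23 (adjusted p = 0.669), and by -0.13 without that library (adjusted p = 0.257), so the sign of that difference rests on 1 library.

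The zfh1 gene (FBgn0004606, 3R at 30765926 to 30789202, plus strand) encodes a repressor with zinc fingers and a homeodomain that binds CtBP. It held 293, 252 and 278 FPKM in ph+E(z)+CtBP libraries, against 139, 198 and 206 FPKM in ph+E(z) libraries and 23.7, 163 and 154 FPKM in control libraries. The libraries with CtBP RNAi were again above the other 6. Of all tested genes 31.2% likewise had no overlap with ph+E(z) RNAi and 36.3% none with control RNAi. Among expressed genes zfh1 ranked between place 349 and place 3942 over the 9 libraries. The change against ph+E(z) RNAi was 0.62 ± 0.64 (adjusted p = 0.782), and without the library labelled control replicate 1 it was 0.62 ± 0.15 and called (adjusted p = 0.0301). In the fit of these 2 groups alone zfh1 was at an adjusted p of 0.059. Against control RNAi the change was 1.69 ± 0.64 (adjusted p = 0.136) with all libraries. Without that library the change was 0.79 ± 0.16 and was called (adjusted p = 0.0163), and zfh1 was then at 173% of the mean of the other 2 control libraries. For zfh1 in ph+E(z) against control RNAi the change was 1.07 ± 0.64 (adjusted p = 0.417), and 0.17 ± 0.16 without that library (adjusted p = 0.587). In the authors' deposited table, which has its own test, the q-value of zfh1 was 0.0398 for ph+E(z) against control and 0.0683 for ph+E(z)+CtBP against ph+E(z). For CtBP, h and Rpd3 the deposited q-values were 0.00102, 0.108 and 0.252 in the second of these comparisons. An antisense RNA gene shares 315 exonic bases with zfh1 on the opposite strand in the dm6 annotation.

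Tramtrack, the product of ttk (FBgn0003870, 3R at 31713867 to 31735392, plus strand), is a BTB zinc finger repressor known for holding back neuronal fate. It held 74.6, 73.5 and 95.7 FPKM in ph+E(z)+CtBP libraries, against 76.6, 85.8 and 82.5 FPKM in ph+E(z) libraries and 25.5, 82.9 and 82.3 FPKM in control libraries. Apart from the library labelled control replicate 1 the groups lay over each other. The change was -0.02 ± 0.41 against ph+E(z) RNAi (adjusted p = 0.998), and 0.53 ± 0.41 against control RNAi (adjusted p = 0.411). Without that control library the second value was -0.03 (adjusted p = 0.875), with an SE of 0.12. With ph+E(z) RNAi alone, ttk differed from control by 0.54 ± 0.41 (adjusted p = 0.488), and by -0.02 without it (adjusted p = 0.952).

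**Figure D2:**
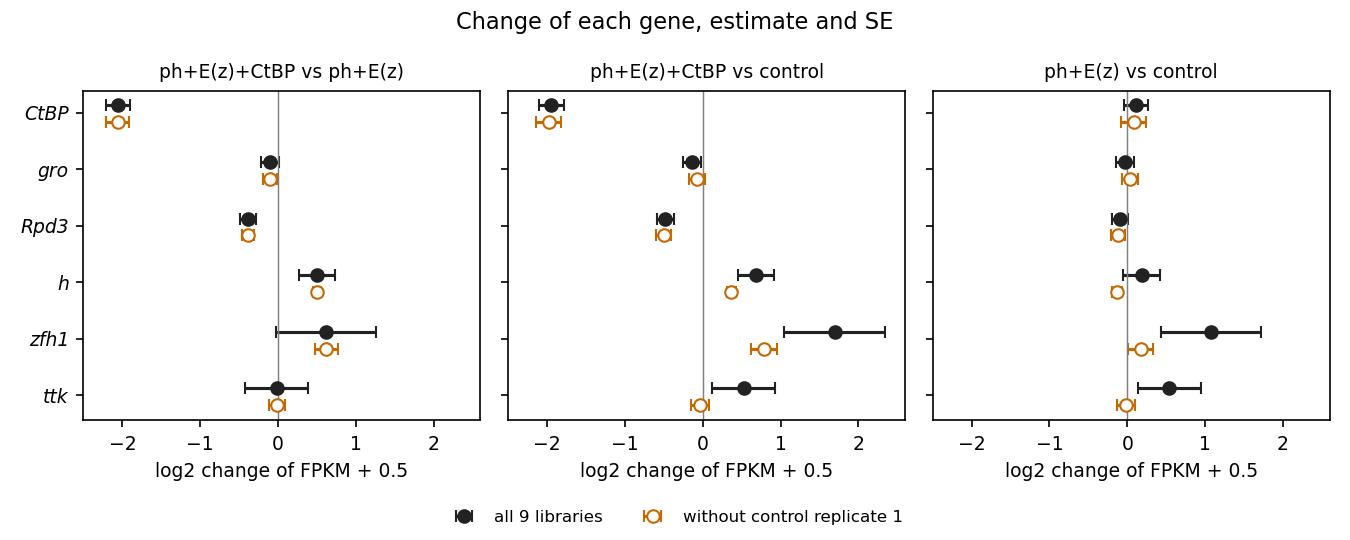
Log2 change of each gene with its SE in the 3 comparisons, filled for the fit of all 9 libraries and open for the fit without the library labelled control replicate 1. CtBP and Rpd3 are left of 0 in the 2 comparisons that involve CtBP RNAi, h and zfh1 are right of 0, and the bars of h, zfh1 and ttk shrink without that library.

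Targeting ph and E(z) without CtBP gave no call among these genes in the limma fit, although zfh1 had a q-value of 0.0398 in the authors' deposited table. By limma 0 of 6 tested genes passed in ph+E(z) against control RNAi, and 0 had an unadjusted p under 0.05, where 1529 of all 8853 genes had one and 3.92% were called, 2.58% higher and 1.34% lower. Without the library labelled control replicate 1 the count was again 0, where 6.80% of genes were called. CtBP itself was at 205 to 221 FPKM with ph+E(z) RNAi, against 189 to 205 FPKM in control libraries. These ranges did not overlap by a narrow margin, as was the case for 26.7% of all tested genes, and the change was 0.12 ± 0.16 (adjusted p = 0.689). The sna transcript stayed under the filter in each group. It was at 0.151, 0.0801 and 0 FPKM with all 3 targets, 0, 0 and 0.148 FPKM with ph+E(z) RNAi, and 0, 0.146 and 0 FPKM in control cells.

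**Figure D3:**
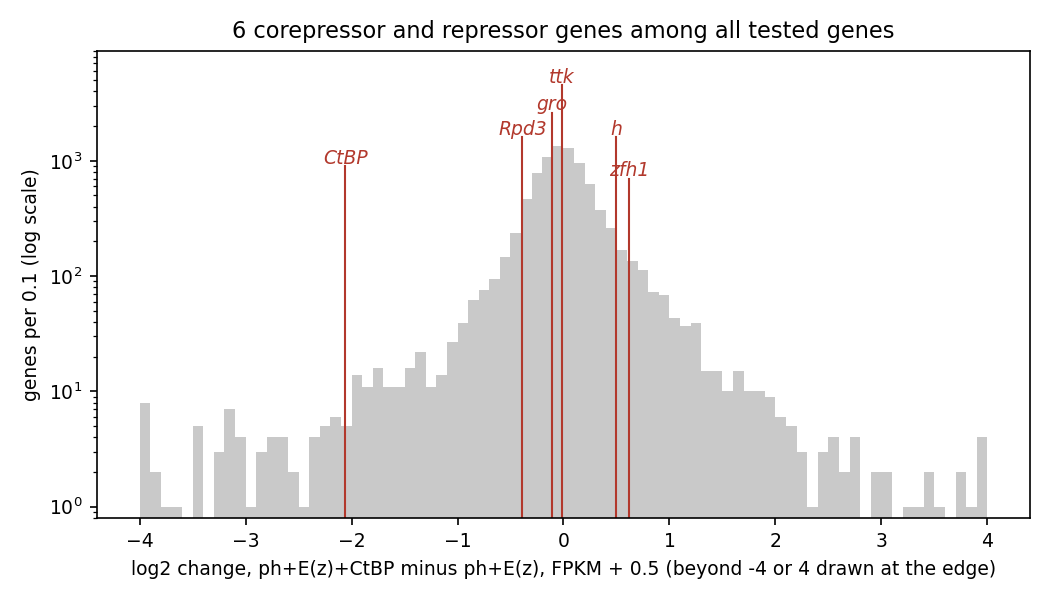
Histogram of the log2 change of all 8853 tested genes between ph+E(z)+CtBP and ph+E(z) RNAi, with a logarithmic count axis, genes past the axis ends drawn in the end bins, and lines at CtBP, gro, Rpd3, h, zfh1 and ttk. CtBP lies in the lower tail at -2.06, gro and ttk in the middle, and h and zfh1 on the right slope, where 9.13% and 6.87% of genes had a higher change.

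Further partners and complexes were taken from lists of known factors. Of 10 factors known to recruit CtBP, 4 were tested, brk, H, Su(H) and pho, and 0 passed by limma in any of the 3 comparisons. Of all tested genes 3.72% passed with CtBP RNAi added. Against control 9.73% passed with all 3 targets and 3.92% with ph+E(z) RNAi. The median log2 change of these 4 genes was 0.06 between ph+E(z)+CtBP and ph+E(z) RNAi, where the median of all tested genes was -0.01. It was 0.24 against control RNAi with all 3 targets and 0.22 with ph+E(z) RNAi, and became 0.05 and -0.03 without the library labelled control replicate 1. Su(H), which encodes the Notch pathway factor Suppressor of Hairless, was at 6.41 ± 1.62 FPKM with all 3 targets, 6.94 ± 0.825 with ph+E(z) RNAi and 5.61 ± 2.39 in control cells. Another of these was brk, a repressor of Dpp targets, at 19.9 ± 1.00 FPKM with all 3 targets, 12.7 ± 3.56 with ph+E(z) RNAi and 12.8 ± 7.74 in control cells. Control replicate 1 was low for both, with 2.86 FPKM of Su(H) and 3.88 of brk. Control replicates 2 and 3 held 7.13 and 6.86 FPKM of Su(H), and 17.2 and 17.3 of brk. Without control replicate 1, brk differed from control by 0.19 with all 3 targets and by -0.47 with ph+E(z) RNAi (adjusted p = 0.580 and 0.249).

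Of 25 factors known to recruit Groucho, 8 were tested. When CtBP RNAi was added 0 rose and 0 fell by limma, where 3.72% of all tested genes were called, with a median log2 change of 0.28. Some of the 8 passed the filter only with ph+E(z)+CtBP libraries counted, which bears on this median. The E(spl) complex gene HLHmbeta, a Hairy-related repressor downstream of Notch that lies near gro, had 6.75 ± 0.957 FPKM with all 3 targets against 3.17 ± 1.22 with ph+E(z) RNAi, a change of 1.02 ± 0.24 (adjusted p = 0.0573). When the library labelled control replicate 1 was left out both HLHmbeta and cic, which encodes the HMG-box repressor Capicua, were called higher with CtBP RNAi added (adjusted p = 0.0270 and 0.0218). Of all tested genes 13.5% were then called in either direction, 602 of 8853 of them higher. Against control RNAi 5.58% of all tested genes rose with all 3 targets and 2.58% with ph+E(z) RNAi. Of the 8, 1 rose in each group, lz, which encodes a Runx factor of crystal cells, the blood cells that carry melanization enzymes. It was at 1.92 ± 0.401 FPKM with all 3 targets and 1.69 ± 0.464 with ph+E(z) RNAi, against 0.377 ± 0.0889 in control cells. The changes were 1.45 ± 0.23 (adjusted p = 0.00733) and 1.30 ± 0.23 (adjusted p = 0.0199), and the second was lost in 4 cases in which 1 library was left out. Its adjusted p was 0.056 and 0.0642 without control replicates 2 and 3, and 0.102 without either of ph+E(z) replicates 2 and 3. Without ph+E(z) replicate 1 the count for ph+E(z) against control was 3 genes, 2 higher and 1 lower. Of all tested genes 190 were then called higher and 117 lower. Against control with all 3 targets 3 of the 8 rose without the library labelled control replicate 1. Of all tested genes 17.4% were then called in either direction, 850 of 8853 of them higher. As lz was under 0.5 FPKM in all control libraries, it passed the filter only through treated libraries.

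Of 18 subunits and partners of deacetylase corepressor complexes, 17 were matched and all 17 tested. When CtBP RNAi was added 1 rose, the class II deacetylase gene HDAC4, and 0 fell, with a median log2 change of -0.01. Of all tested genes 1.94% rose and 1.77% fell. Without the library labelled control replicate 1, HDAC4 was higher and Caf1 lower, where 13.5% of all tested genes were called. HDAC4 was at 38.3 ± 2.98 FPKM with all 3 targets against 26.7 ± 1.16 with ph+E(z) RNAi and 29.4 ± 2.56 in control cells, a change of 0.51 ± 0.11 (adjusted p = 0.0499). This call was at the threshold and was lost without any 1 library other than control replicate 1, with adjusted p up to 0.199. Caf1 (p55), a histone-binding subunit of several such complexes, was at 131 ± 5.36, 159 ± 4.19 and 161 ± 9.47 FPKM in ph+E(z)+CtBP, ph+E(z) and control libraries. Its change when CtBP RNAi was added was -0.28 ± 0.09 (adjusted p = 0.157, and 0.0166 without control replicate 1). Against control RNAi 9.73% of all tested genes were called with all 3 targets and 3.92% with ph+E(z) RNAi. Of the 17 genes 0 were called by limma against control RNAi in either group. Caf1 had the smallest adjusted p there with all 3 targets (-0.30 ± 0.09, adjusted p = 0.074), and was called without the library labelled control replicate 1 (-0.26, adjusted p = 0.0300).

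**Figure D4:**
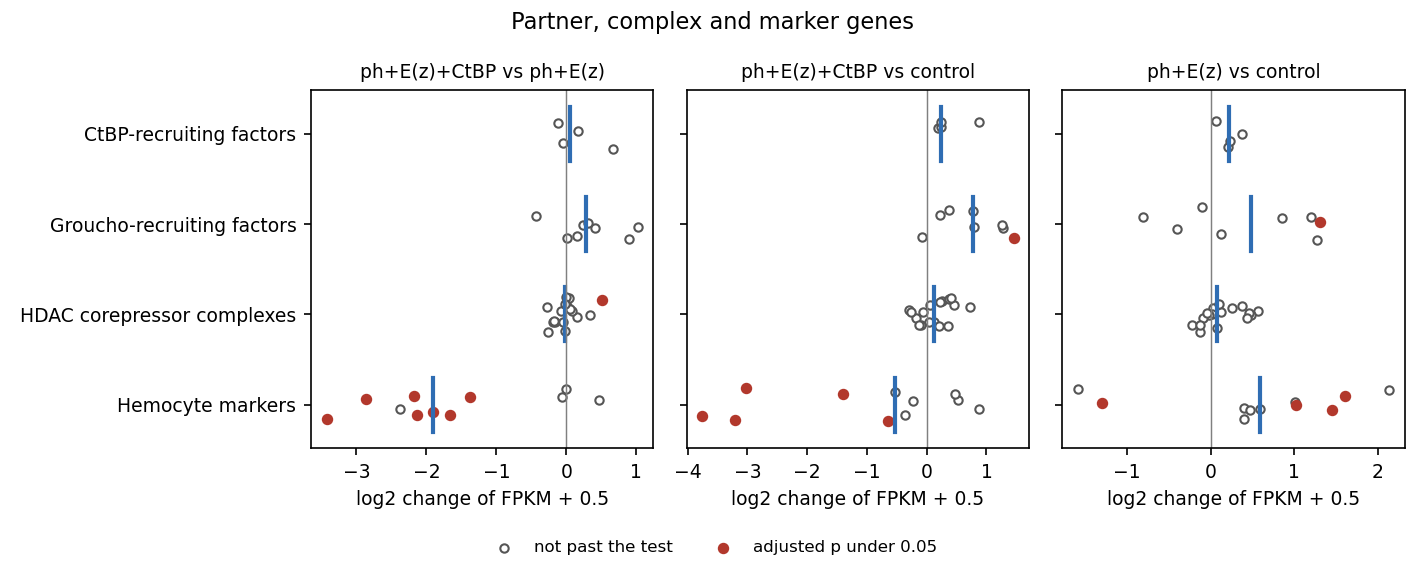
Log2 change of every tested gene of 4 lists in the 3 comparisons, filled where the adjusted p was under 0.05, with a vertical bar at the median of each list. With CtBP RNAi added, the medians of the partner and complex lists are at 0.06, 0.28 and -0.01. Of the 8 Groucho-recruiting factors 0 are filled there, and 7 of 11 hemocyte markers are filled on the left, where 1.77% of all tested genes fell.

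Markers of the labelled cell type moved in the same comparison. Of 12 hemocyte markers 11 were at 0.5 FPKM or more in every library, the exception being gcm, and the GATA factor gene srp was at 77.7 to 206 FPKM. Where CtBP RNAi was added 7 of 11 fell, 0 rose and 4 did not pass (median log2 change -1.91), and the count was 4 without ph+E(z) replicate 2 or ph+E(z)+CtBP replicate 1 or 2. Of all tested genes 1.77% fell and 1.94% rose there. With control replicate 1 left out 13.5% of all tested genes were called, 602 of 8853 higher and 589 lower. Of the markers 8 were then lower and 1 higher, the added ones being Hml, a hemolectin gene (-2.37, adjusted p = 0.000977), and ush, which encodes a partner of GATA factors (0.47, adjusted p = 0.0158). Their summed level was 887 to 1039 FPKM with all 3 targets, 2026 to 2680 FPKM with ph+E(z) RNAi and 972 to 1462 FPKM in control libraries. The phagocytosis receptor gene nimC1 fell by 2.86 ± 0.23 (adjusted p = 0.00137), the hemocyte gene He fell by 1.66 ± 0.17 (adjusted p = 0.00284), the peroxidasin gene Pxn fell by 3.42 ± 0.39 (adjusted p = 0.00428) and the collagen gene Cg25C (Col4a1) fell by 1.91 ± 0.27 (adjusted p = 0.00769). Against control RNAi 5 of 11 fell with all 3 targets, among them Cg25C at -3.20 ± 0.27 (adjusted p = 0.000495), and without the library labelled control replicate 1 the count was 7 lower and 1 higher. With ph+E(z) RNAi alone 3 rose and 1 fell against control, where 2.58% of all tested genes rose and 1.34% fell. The total of called markers was 1 without control replicate 2 or 3, 2 without ph+E(z)+CtBP replicate 1 or 2, and 0 if ph+E(z) replicate 2 or 3 was left out. Neuron markers summed to 7.12 to 27.2 FPKM, muscle markers to 15.4 to 29.8, germline markers to 48.9 to 60.8 and fat body markers to 0.504 to 2.26 over all libraries. The neuron list includes repo, a gene of glia and not of neurons, which was at 0 to 0.126 FPKM and not tested. Only 3 of 8 neuron, 2 of 9 muscle and 6 of 8 germline markers passed the filter and were tested, and 0 of 8 fat body markers. By limma 0 of those tested were called except for the muscle gene wupA. It was at 3.55 ± 1.08 FPKM with all 3 targets against 0.898 ± 0.344 in control cells (adjusted p = 0.0323), where 5.58% of all tested genes rose. This call was lost when any 1 of 6 libraries was left out, control replicates 2 and 3, ph+E(z) replicate 2 and the 3 ph+E(z)+CtBP replicates, with adjusted p up to 0.124. For wupA with CtBP RNAi added, the change of 1.28 ± 0.35 was not called (adjusted p = 0.106), but was called when control replicate 1 (0.0475) was left out, and likewise when ph+E(z) replicate 1 (0.0422) was. The part of these markers in the values of h, zfh1 or Rpd3 was not tested, and in such bulk libraries fewer cells of a type and less RNA per cell cannot be told apart.

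The 4 named genes whose pattern over the 9 libraries was most like that of CtBP were fat-spondin, PKD, ppa and Corin. Likeness was the root mean square difference of log2(FPKM + 0.5) after each gene was centred on its own mean, and it was 0.240, 0.293, 0.351 and 0.364, against a root mean square of 0.958 for CtBP about its own mean. The gene fat-spondin held 6.81, 5.98 and 7.80 FPKM with all 3 targets, against 23.3, 29.3 and 28.4 FPKM with ph+E(z) RNAi and 16.7, 20.8 and 20.3 FPKM in control libraries. The protein kinase D gene PKD held 3.09, 2.50 and 8.43 FPKM with all 3 targets, against 20.8, 18.6 and 17.4 FPKM with ph+E(z) RNAi and 13.4 to 17.1 FPKM in control libraries. These genes were chosen for their likeness over the same 9 libraries, so that they share the low libraries of CtBP is not a separate finding. For h the closest were sgg (0.0518) and hts (0.0719), for zfh1 mbc (0.132) and l(3)L1231 (0.134), for ttk Aef1 (0.0775) and Ssdp (0.0825), for Rpd3 iHog (0.0697) and CycA (0.0782), and for gro RpS24 (0.0477) and spin (0.0565). The matches of h, zfh1 and ttk share the low value in control replicate 1. For example sgg, which encodes glycogen synthase kinase 3, was at 118, 118 and 108 FPKM with all 3 targets, at 79.2, 85.0 and 84.5 with ph+E(z) RNAi, and at 49.8, 86.2 and 86.0 in control libraries.

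**Figure D5:**
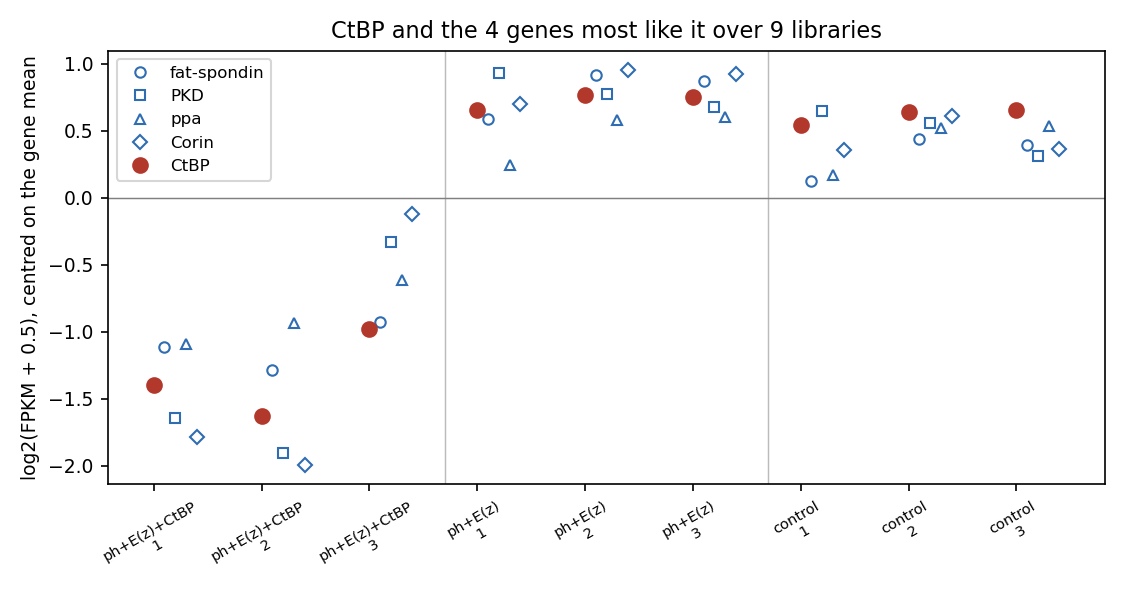
Log2(FPKM + 0.5) of CtBP and the 4 genes most like it in each library, centred on the mean of each gene over the 9 libraries. All 5 genes are below 0 in the 3 ph+E(z)+CtBP libraries and above 0 in the other 6, a likeness for which the 4 were chosen.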

How the data were processed

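Per the submitters' processing notes, the tools were TopHat2 2.1.0, Bowtie2 2.2.6, Cufflinks, Cuffdiff and R 3.2.3, with dm6 as the build. The authors deposited 1 FPKM value per gene and library and the q-value of 2 comparisons of their own. The scaling of FPKM between libraries, strandedness and depth were not given in the sources used here. The FPKM columns were mapped to samples by their descriptions. Of 13462 gene identifiers found in the dm6 annotation (Ensembl release 115), 801 had a deposited start within 1 base of it, so coordinates come from that annotation by FlyBase identifier and not from the deposited positions. The deposited position of CtBP on 3R was 8837387 to 8851905, against 13011649 to 13026275 in dm6, although dm6 is the build named. The gene models behind the deposited FPKM are therefore not known, and they may differ from those used here for overlaps.

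Log2(FPKM + 0.5) was fitted with limma 3.58.1 in R 4.3.3, 1 fit of 3 groups with a mean-variance trend, over 8853 genes with at least 0.5 FPKM in at least 3 of 9 libraries. The fit was tested on simulated data in which all libraries had the same spread, so that run does not bear on control replicate 1. No set test was run. Members, lists and tests were chosen with earlier results of these data known. Named genes are the 7 genes, the targets, genes of each list by smallest adjusted p (up to 4 called, or 1 where 0 were called) and the closest patterns; not every gene the rule allowed is printed. The genes brk, cic, Hml and ush, and Caf1, Su(H) and HLHmbeta outside the comparison in which the rule picked them, were named after their values were seen. Of the lists, 1 gene, Pf1, was not matched, and side was removed because the deposited symbol is another gene. A planned motif search in the proteins was not run. Alternatives covered the pseudocount, filter, scaling, trend, robust moderation, library weights, fits of 2 groups, a replicate block and leaving out each library.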

Additional observations from a re-analysis of the deposited data

How the results depend on the processing

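Over 20 alternatives CtBP fell in both comparisons that involve its RNAi, with log2 changes of -2.24 to -1.91 against ph+E(z) RNAi and -2.12 to -1.80 against control RNAi, and its change between ph+E(z) and control RNAi was called in 0 of them (0.081 to 0.15). Leaving out 1 library gave 108 to 602 called genes for ph+E(z) against control, 89 to 1191 for ph+E(z)+CtBP against ph+E(z) and 298 to 1541 for ph+E(z)+CtBP against control (347, 329 and 861 with all libraries), and 0, 1 to 4 and 1 to 4 of the 7 genes. With array weights these counts were 2924, 2396 and 3278 genes and 0, 5 and 4 of the 7 genes. With fits of 2 groups they were 210, 793 and 378 genes and 0, 3 and 1 of the 7. Replicate numbers are not said to mark a shared day, and the deviations of same-numbered libraries correlated between -0.14 and 0.20, which is not over 0.1 for every pair, so the samples were not treated as paired. For ph+E(z) against control the 3 values were 0.20, 0.046 and 0.14. With a replicate block 212, 241 and 593 genes were called, and of the 7 genes 0, 1 and 1, since Rpd3 was then at an adjusted p of 0.0647 against control. The block also ended the lz call for ph+E(z) against control (0.0568). With array weights gro was called lower against ph+E(z) RNAi (-0.21, adjusted p = 0.0346). Rpd3 against control was called in 13 of 20 alternatives, and h and zfh1 against ph+E(z) in 3 and 2.

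Changes that missed the threshold turned sign as follows. Between ph+E(z) and control, gro was at 0.026 with quantile normalization, 0.066 with array weights, and -0.068 to 0.033 without single libraries. There h was at -0.087 with array weights and -0.13 to 0.35 without single libraries, ttk at -0.019 to 0.82, ph-d at -0.14 with array weights and -0.19 to 0.72, and Su(H) at -0.016 to 0.58 without single libraries, negative without control replicate 1. Between ph+E(z)+CtBP and ph+E(z), ttk was at -0.14 to 0.051 without single libraries, E(z) at 0.0058 with quantile normalization, 0.094 with array weights and -0.12 to 0.14, and ph-p at -0.034 with array weights and -0.044 to 0.20. Between ph+E(z)+CtBP and control, ttk was at -0.10 with array weights and -0.034 to 0.81, and ph-d at -0.37 with array weights and -0.32 to 0.59. The causes were not tested.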

Other observations

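The 3 libraries treated against CtBP did not lose it equally, and the other repressors differed among them too. Replicate 3, with 65.8 FPKM of CtBP against 49.0 and 41.8 in replicates 1 and 2, also held the most gro (127 against 103 and 107 FPKM), Rpd3 (86.0 against 73.1 and 71.9) and ttk (95.7 against 74.6 and 73.5), and the least h (225 against 235 and 235). For zfh1 replicate 3 was in the middle (278 against 293 and 252). Genes with RpL and RpS symbols took 28.7% of FPKM in replicate 3 and 26.7% and 26.4% in replicates 1 and 2. With 3 libraries these are values only, and their relation was not tested.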
